A study of Mus musculus with 4 samples.

Results

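Wnt ligands, their receptors, the secreted proteins that tune them and the factors that carry the signal were followed in sorted mouse lung endothelial cells. They were chosen by gene symbol, with earlier results of these data known, and make up 61 of the 17915 coding genes in the deposited table. The symbols cover Wnt, Fzd, Sfrp, Dkk and Rspo genes, Lgr4 to Lgr6, Axin1 and Axin2, Nkd1 and Nkd2, Ror1 and Ror2, and Frzb, Wif1, Lrp5, Lrp6, Notum, Apcdd1, Znrf3, Rnf43, Ctnnb1, Lef1, Tcf7, Tcf7l1 and Tcf7l2.

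Wnt proteins are secreted, lipid-modified signals that bind Frizzled receptors together with the co-receptors Lrp5 or Lrp6. In the canonical branch, binding stops a complex built on Axin from breaking down beta-catenin, which then enters the nucleus and acts with TCF/LEF factors. Frizzled-related proteins and Wif1 bind the ligands outside the cell, Dickkopf proteins bind Lrp5 and Lrp6, and R-spondins acting through Lgr receptors keep the ligases Znrf3 and Rnf43 from removing Frizzled. In endothelium the pathway is best known for vessel growth and barrier formation in brain and retina, where Fzd4 has a central part.

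All 4 libraries came from mice of the genotype Cdh5-CreER;aSMA-LSL-Dre;NR1, given tamoxifen 5 times and taken 6 weeks after transverse aortic constriction, an operation that narrows the aorta. Cdh5-CreER is a tamoxifen-inducible recombinase driven in endothelium, and the Dre recombinase sits under alpha smooth muscle actin (aSMA), so endothelial cells are marked by ZsGreen and turn to tdTomato once aSMA has been active, even for a short time. The groups were 2 libraries of tdTomato+ and 2 of ZsGreen+ cells, and no group without the operation is among them. The labels call the 2 libraries of a group biological replicates. Age, sex, the number of mice per library and whether same-numbered libraries share mice cannot be read from them. The question was which genes differ between endothelial cells with and without a record of aSMA activity.

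Libraries held 17050673 to 18574737 estimated counts over coding genes. Endothelial markers were present in each, with all 12 read in every library. They summed to 8431 and 8421 TPM (a level scaled to transcript length and library size) in tdTomato+ and 8992 and 8995 in ZsGreen+ libraries. Acta2, the recorded locus, gave 304 and 528 CPM in the tdTomato+ libraries and 87.6 and 82.9 in the ZsGreen+ ones (log2 fold change 2.29, SE 0.29, edgeR adjusted p = 0.0432). CPM are counts scaled to a common library size (TMM, the trimmed mean of M values), and fold changes are tdTomato+ over ZsGreen+ throughout. The Acta2 call ended without tdTomato+ replicate 2 (edgeR adjusted p = 0.126) and without ZsGreen+ replicate 2 (edgeR adjusted p = 0.111).

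By level, both groups showed the receiving side of the pathway and little of its ligands. Beta-catenin (Ctnnb1), the feedback inhibitor Nkd1, the co-receptor Lrp5 and the receptors Fzd4 and Fzd6 were the most abundant members, while 15 of 17 Wnt ligands stayed under 1 TPM in every library. The 17 ligands summed to 3.43 and 4.28 TPM in tdTomato+ and 4.10 and 4.41 TPM in ZsGreen+ libraries. The 10 Frizzled receptors summed to 85.5 and 89.1 TPM in tdTomato+ and 64.0 and 94.8 TPM in ZsGreen+ libraries. Of the 61 members, 40 had a count in every library, 8 were above 10 TPM in every library, 30 stayed under 1 TPM in all of them, and Wnt10a, Wnt16 and Rspo2 were read in none.

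**Figure D1:**
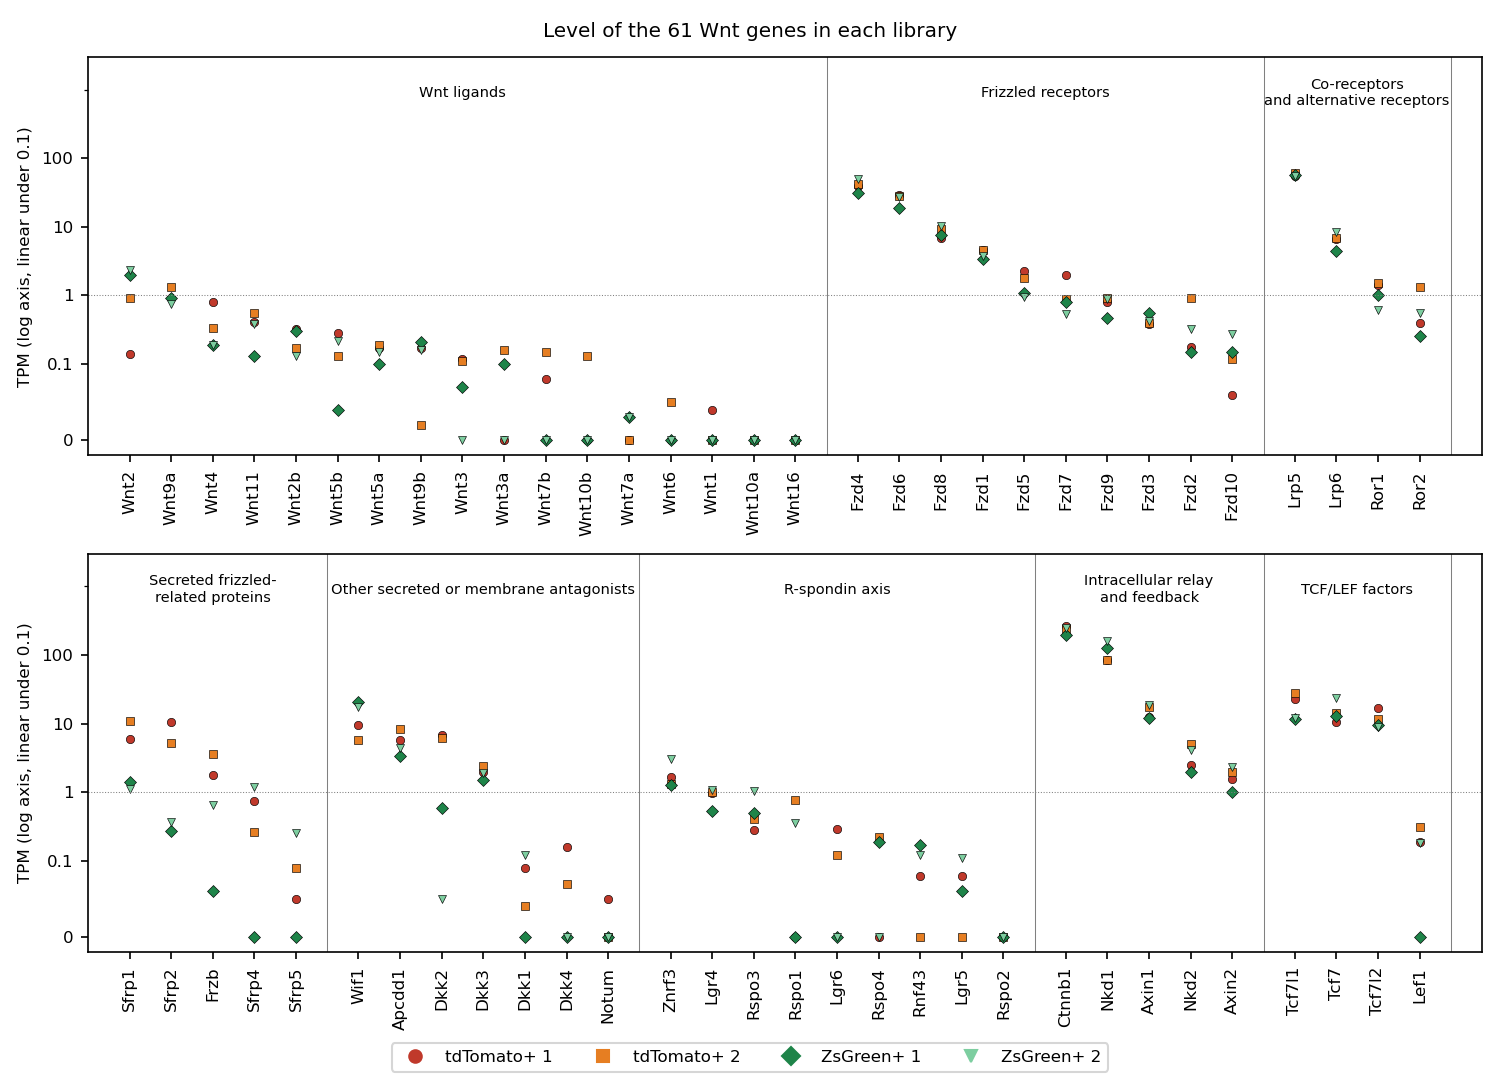
Level of each of the 61 Wnt genes in TPM (log axis, linear under 0.1), grouped by role and ordered by mean level, with 1 point per library. Ctnnb1 lies between 197 and 268 TPM and Nkd1 between 85.0 and 160 TPM, whereas of the ligands Wnt2 and Wnt9a alone pass 1 TPM (dotted line) in any library.

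Between the groups, 1 of the 61 members was called at an adjusted p under 0.05: Sfrp2, a secreted antagonist, rose in tdTomato+ cells. It entered the test through its tdTomato+ libraries alone, and the call was lost on leaving out any of 3 of the 4 libraries. The antagonists Dkk2, Sfrp1 and Frzb were also above ZsGreen+ levels in both tdTomato+ libraries, the antagonist Wif1, the feedback inhibitor Nkd1 and the ligand Wnt2 were below them, and for the antagonists Sfrp4 and Dkk3 the log2 fold change was smaller than its SE. Apart from Sfrp2 none of these passed the test over all genes, and neither did any receptor, co-receptor or Ctnnb1. In sorted bulk samples, fewer cells of a type and less RNA per cell cannot be told apart.

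The test was edgeR's quasi-likelihood test over 13177 genes with enough counts, and Benjamini-Hochberg adjusted. It took in 37 of the 61 members, and the other 24 had at most 15 counts in any library. It called 40 genes, 22 higher and 18 lower, a share of 0.304% in either direction. Of the 37 members 1 was called higher and 0 lower, where 0.167% of all genes tested were called higher. At an unadjusted p under 0.05, 5 members were higher and 3 lower, beside 5.62% and 3.15% of all genes. Both libraries of tdTomato+ cells lay above both of ZsGreen+ cells for 13 members and below them for 6, beside 19.9% and 18.2% of all genes (38.1% in either direction). The median log2 fold change was 0.20 over the members tested and -0.01 over all genes tested. Of the 37, Sfrp2, Wnt4 and Wnt5a passed the minimum count through tdTomato+ libraries alone, so these 3 could only enter the test with a difference in that direction.

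**Figure D2:**
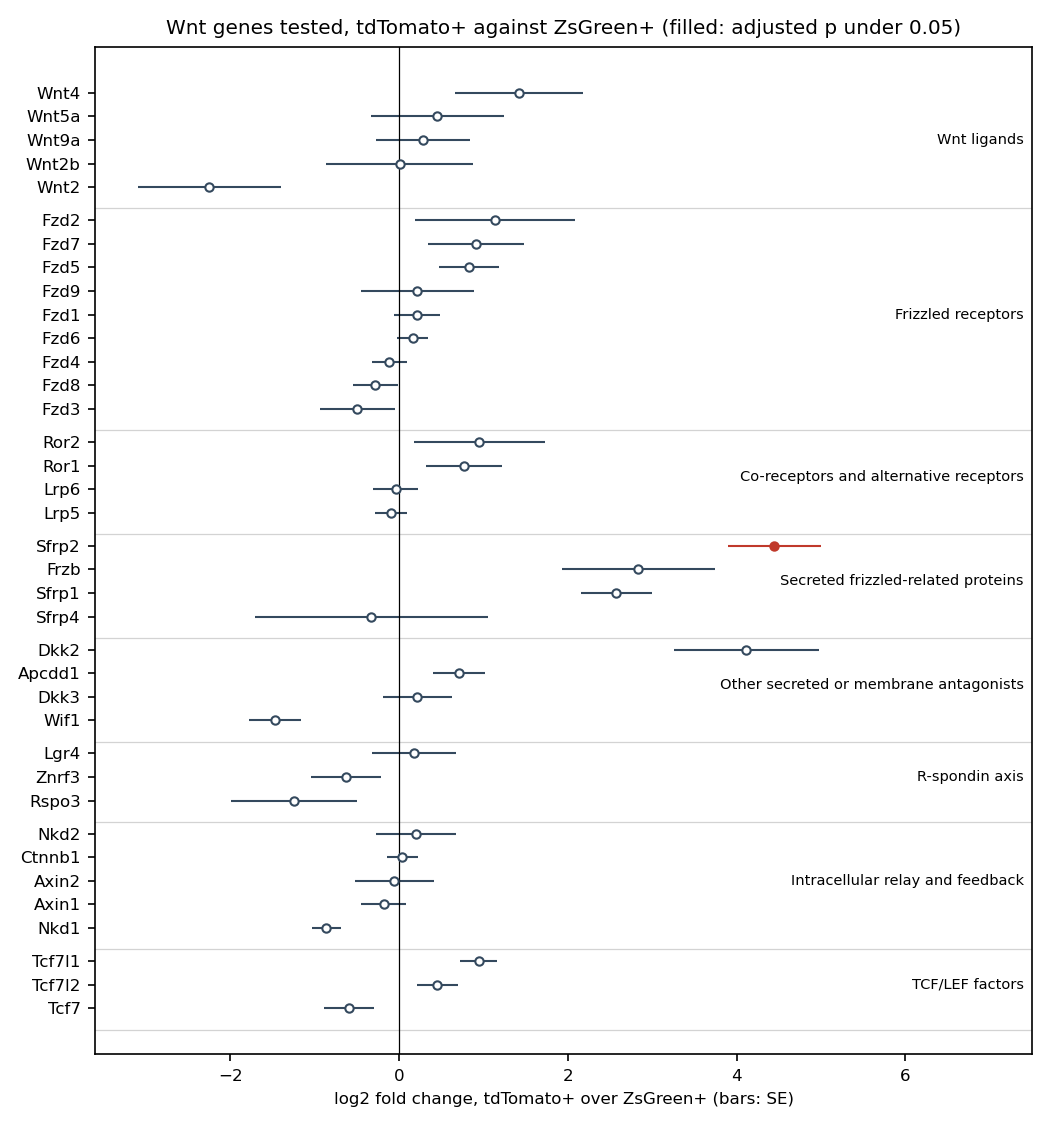
Log2 fold change (tdTomato+ over ZsGreen+) with its SE for the 37 members tested, grouped by role. Sfrp2, at 4.45, is the single filled point (adjusted p under 0.05); Dkk2 lies at 4.11 and Wnt2 at -2.25.

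Wnt ligands were near the lower end of what these libraries can resolve, and none of the 5 tested was called. Wnt2, a ligand known for its part in lung development, had 3 and 22 counts in tdTomato+ libraries and 54 and 54 in ZsGreen+ libraries. In CPM this was 0.165 and 1.16 against 3.42 and 2.96. Both ZsGreen+ libraries were thus above both tdTomato+ libraries, with a log2 fold change of -2.25 (SE 0.85, edgeR adjusted p = 0.496), and tdTomato+ replicate 1 was the lowest by far. Without that library it was -1.46, and without tdTomato+ replicate 2 it was -4.19, neither called. Wnt9a was the only other ligand above 1 TPM in a library, at 1.76 and 2.78 CPM in tdTomato+ and 2.21 and 1.53 CPM in ZsGreen+ cells, and the groups overlapped. Wnt4 stood at 1.76 and 0.788 against 0.506 and 0.438 CPM (log2 fold change 1.42, SE 0.76, edgeR adjusted p = 0.713). Wnt5a and Wnt5b, ligands usually linked to signalling without beta-catenin, stayed under 0.3 TPM in each library. Wnt7b was listed with 3 and 6 counts in tdTomato+ libraries and 0 in both ZsGreen+ libraries, too few for a comparison. Wnt1, Wnt3, Wnt3a, Wnt6, Wnt7a and Wnt10b had at most 5 counts in any library.

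Frizzled receptors, the seven-pass membrane proteins that bind Wnt ligands, were dominated by Fzd4 and Fzd6 in both groups. Fzd4 stood at 84.6 and 95.6 CPM in tdTomato+ and 82.1 and 113 CPM in ZsGreen+ libraries, which enclose the tdTomato+ values. Fzd6 stood at 68.7 and 69.0 CPM against 55.8 and 67.5 CPM, a log2 fold change of 0.16 (SE 0.18). By TPM, Fzd4 (30.9 to 50.2) came first and Fzd6 (19.0 to 29.0) second, followed by Fzd8 (6.86 to 10.4) and Fzd1 (3.40 to 4.59), and the ranges of Fzd4 and Fzd6 did not meet. Fzd5 was the member of this group with the smallest p, at 9.46 and 7.72 CPM in tdTomato+ and 5.51 and 4.16 CPM in ZsGreen+ libraries. Its groups did not overlap, but its log2 fold change of 0.83 (SE 0.35) was not called (edgeR adjusted p = 0.575). Fzd7 had a log2 fold change of 0.91 (SE 0.57), Fzd3 of -0.49 (SE 0.45) and Fzd8 of -0.28 (SE 0.27), with edgeR adjusted p from 0.775 to 0.869. None of the 9 Frizzled genes tested was called, and none had an unadjusted p under 0.05. Fzd2 had the largest difference among them, with a log2 fold change of 1.14 (SE 0.95) that rests on tdTomato+ replicate 2, at 2.05 CPM against 0.380 to 0.712 CPM in the other libraries, and turned to -0.48 without it. Fzd10, with 2 to 9 counts per library, was not tested.

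The co-receptors Lrp5 and Lrp6 lay close together in the 2 groups. Lrp5 stood at 171 and 197 CPM in tdTomato+ and 215 and 178 CPM in ZsGreen+ libraries (log2 fold change -0.09, SE 0.19), and Lrp6 at 37.8 and 40.9 against 30.5 and 50.2 CPM (-0.04, SE 0.27). Values of the groups overlapped for both, and the sign of both changed with the scaling (given under the dependence on processing). On the TPM scale Lrp5, at 55.4 to 61.2, was several times the level of Lrp6, at 4.38 to 8.52, in each library. Ror1 and Ror2, receptor kinases that bind Wnt5a, were low. Ror1 had 4.84 and 5.25 CPM in tdTomato+ and 3.73 and 2.19 CPM in ZsGreen+ libraries (log2 fold change 0.77, SE 0.45, edgeR adjusted p = 0.757). Ror2 was highest in tdTomato+ replicate 2, at 3.20 CPM against 0.759 to 1.37 CPM in the other libraries.

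Secreted frizzled-related proteins carry a Frizzled-like domain that binds Wnt ligands outside the cell, and this family held the called member. Sfrp2 had 218 and 118 counts in tdTomato+ libraries and 6 and 8 in ZsGreen+ libraries. Scaled to library size this was 11.99 and 6.20 CPM against 0.380 and 0.438 CPM, or 9.10 ± 4.10 against 0.409 ± 0.0414 CPM (mean ± SD, n = 2 each). The lower tdTomato+ library was thus still far above both ZsGreen+ libraries, and the 2 tdTomato+ libraries differed from each other more than the ZsGreen+ ones. The log2 fold change was 4.45 (SE 0.56), a fold of 21.8 that rests on 14 counts in the lower group (edgeR adjusted p = 0.0432). The gene (NCBI Gene 20319) lies on chromosome 3 at 83765750 to 83774314 of GRCm38.p6 in RefSeq. The call held with no minimum count (edgeR adjusted p = 0.0042) and without ZsGreen+ replicate 1 (0.0293). It ended without tdTomato+ replicate 1 (edgeR adjusted p = 0.16), tdTomato+ replicate 2 (0.126) or ZsGreen+ replicate 2 (0.105), and with limma-voom (0.146) or limma on TPM (0.0598 and 0.0652); over the 9 alternatives with all libraries it ranged from 3.34e-14 to 0.146.

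Sfrp1 was the most abundant frizzled-related member, with 15.1 and 29.9 CPM in tdTomato+ libraries and 4.56 and 3.01 CPM in ZsGreen+ libraries. Both tdTomato+ values lay above both ZsGreen+ values, and replicate 2 was the higher of the pair. Its log2 fold change of 2.57 (SE 0.42) did not pass (edgeR adjusted p = 0.0978). Frzb, also called Sfrp3, stood at 2.97 and 6.41 against 0.127 and 1.15 CPM (log2 fold change 2.84, SE 0.91, edgeR adjusted p = 0.387), with 2 counts in ZsGreen+ replicate 1. Without that library the log2 fold change was 2.02, and without ZsGreen+ replicate 2 it was 5.13, neither called. Sfrp4 ran from 0 to 1.21 CPM, with both extremes among ZsGreen+ libraries, and Sfrp5 had at most 5 counts. Summed over the family, the level was 19.2 and 20.3 TPM in tdTomato+ libraries and 1.76 and 3.58 TPM in ZsGreen+ libraries. In tdTomato+ libraries most of this sum was Sfrp1 and Sfrp2, so it repeats their difference. Sfrp4 and Sfrp5 overlapped between groups.

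Among the other antagonists, Dkk2 and Wif1 stood apart between the groups in opposite directions. Dkk2, a Dickkopf protein that binds Lrp5 and Lrp6, had 272 and 263 counts in tdTomato+ libraries and 25 and 2 in ZsGreen+ libraries. This was 15.0 and 13.8 CPM against 1.58 and 0.110 CPM, with the tdTomato+ libraries alike and the ZsGreen+ libraries far from each other. The log2 fold change of 4.11 (SE 0.86) was nearly as large as that of Sfrp2 but was not called (edgeR adjusted p = 0.164). Without ZsGreen+ replicate 1 it was 6.95 (edgeR adjusted p = 0.00568), a comparison with a library of 2 counts, and without ZsGreen+ replicate 2 it was 3.18 (0.0534). Wif1, which binds Wnt ligands directly, stood at 12.2 and 7.77 CPM in tdTomato+ libraries and 32.0 and 23.4 CPM in ZsGreen+ libraries. Its values did not overlap between groups, with a log2 fold change of -1.47 (SE 0.31, edgeR adjusted p = 0.168). By TPM it was the highest of these antagonists in ZsGreen+ cells, at 20.4 and 17.7. Apcdd1, a membrane-bound Wnt inhibitor, had 11.4 and 17.3 against 8.35 and 9.20 CPM (log2 fold change 0.71, SE 0.31, edgeR adjusted p = 0.59). Dkk3, a divergent family member, was nearly level at 3.85 and 4.94 against 3.67 and 3.89 CPM. Dkk1, Dkk4 and Notum had at most 3 counts in any library.

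**Figure D3:**
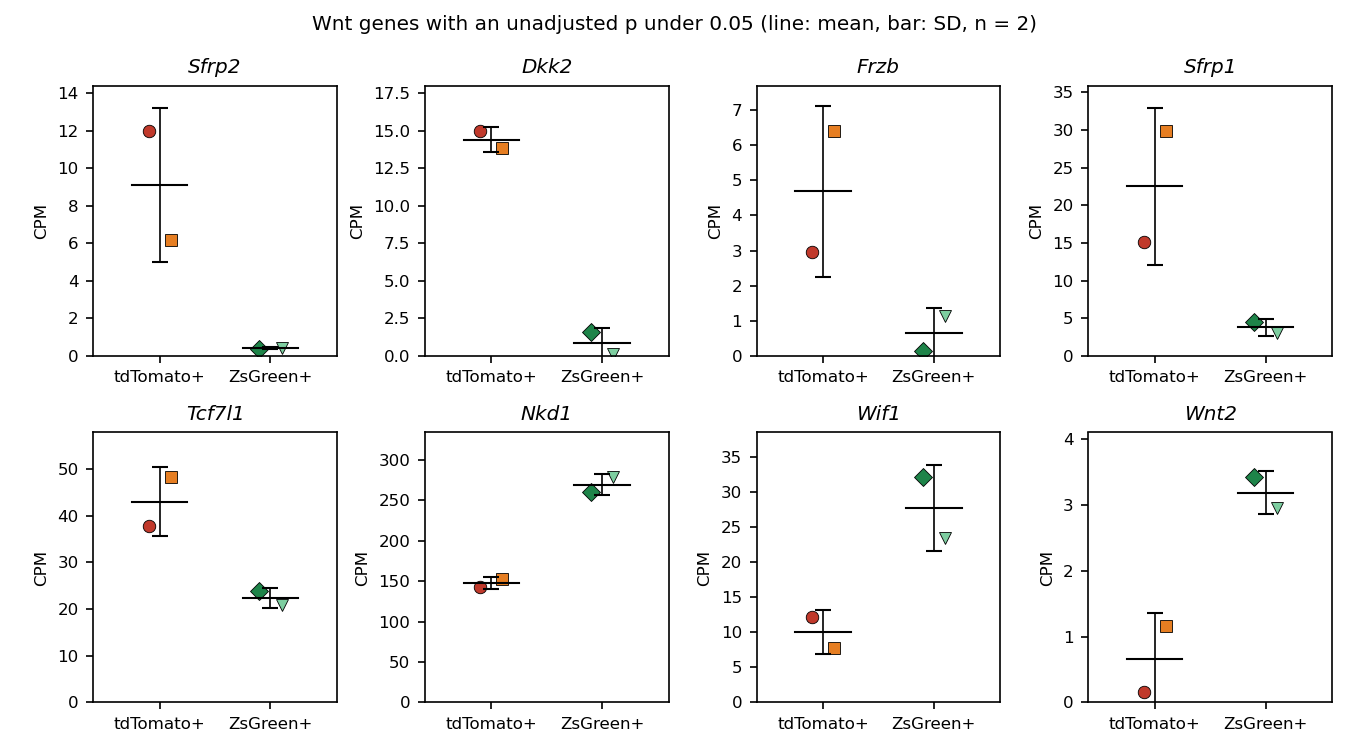
CPM in each library for the 8 members with an unadjusted p under 0.05 (points: libraries; line and bar: mean and SD, n = 2; bars that reach below 0 end at the axis). The groups do not overlap in any panel, which picking by p favours, beside 38.1% of all genes tested. Sfrp2 alone passed the adjusted test.

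To show the start regions of antagonists and of Nkd1 that stood apart in either direction, the 250 bases before the annotated start are given 5′ to 3′ for 3 genes above in tdTomato+ cells (Sfrp2, Frzb, Dkk2) and 2 above in ZsGreen+ cells (Wif1, Nkd1). Sequences are from RefSeq on GRCm38.p6, and capitals mark the letters CTTTGA or CTTTGT on either strand, the core read by TCF/LEF factors. The windows are chr3:83766071-83766320 for Sfrp2, chr3:132085042-132085291 for Dkk2, chr10:121033754-121034003 for Wif1 and chr8:88527383-88527632 for Nkd1 on the plus strand, and chr2:80447397-80447646 for Frzb on the minus strand. Those of Sfrp2 and Nkd1 lie inside the annotated gene span, and that of Dkk2 overlaps its first bases.
Sfrp2: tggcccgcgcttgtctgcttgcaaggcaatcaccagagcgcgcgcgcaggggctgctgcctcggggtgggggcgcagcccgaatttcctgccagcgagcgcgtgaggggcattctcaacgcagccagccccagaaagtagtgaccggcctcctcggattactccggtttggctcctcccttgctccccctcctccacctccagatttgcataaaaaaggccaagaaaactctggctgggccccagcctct
Frzb: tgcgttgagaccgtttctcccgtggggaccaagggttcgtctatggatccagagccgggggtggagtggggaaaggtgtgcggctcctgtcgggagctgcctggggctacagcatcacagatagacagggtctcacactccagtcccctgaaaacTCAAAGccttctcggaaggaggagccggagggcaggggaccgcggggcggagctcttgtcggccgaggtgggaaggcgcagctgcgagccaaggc
Dkk2: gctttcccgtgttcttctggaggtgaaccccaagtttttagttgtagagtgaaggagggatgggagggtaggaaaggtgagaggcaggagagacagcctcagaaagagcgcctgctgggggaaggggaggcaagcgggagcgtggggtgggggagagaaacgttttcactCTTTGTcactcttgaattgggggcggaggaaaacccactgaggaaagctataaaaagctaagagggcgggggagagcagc
Wif1: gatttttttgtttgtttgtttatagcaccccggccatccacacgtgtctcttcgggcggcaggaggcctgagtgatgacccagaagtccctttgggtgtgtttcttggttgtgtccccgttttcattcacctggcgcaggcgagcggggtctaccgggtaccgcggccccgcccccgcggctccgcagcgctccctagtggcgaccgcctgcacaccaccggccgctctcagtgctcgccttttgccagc
Nkd1: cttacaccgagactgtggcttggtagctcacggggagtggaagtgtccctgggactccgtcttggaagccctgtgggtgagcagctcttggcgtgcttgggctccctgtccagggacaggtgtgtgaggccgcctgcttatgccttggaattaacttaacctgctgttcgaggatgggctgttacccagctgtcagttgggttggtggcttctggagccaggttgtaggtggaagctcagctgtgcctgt
The core letters appear once in Frzb, beginning 95 bases before the start, and once in Dkk2, beginning 80 bases before it. They are absent from the printed windows of Sfrp2, Wif1 and Nkd1. CG pairs number 16 in the Sfrp2, 16 in the Frzb, 7 in the Dkk2, 21 in the Wif1 and 6 in the Nkd1 window.

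RefSeq windows of 250 bases before to 50 after a start were matched for 41 of the 61 members, some with several starts, giving 51 windows. The core letters were present in 13 of the 51, or 25.5%, with an exact binomial 95% interval of 14.3% to 39.6% that holds the 31.2% of all 32851 windows. Some windows of the same gene overlap, whereas the interval treats all windows as independent. The longer letters CTTTGAT or CTTTGTT lay the other way, in 11.8% of the members' windows and 9.33% of all, so no direction is read from either. Their windows were richer in G and C, with a median of 67.3% against 52.7%. A match is a description of sequence and not a binding site.

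R-spondins, their Lgr receptors and the ligases they act on were sparse. Znrf3, a ligase that removes Frizzled from the surface and is itself a Wnt target, was the highest of them at 7.04 and 5.57 CPM in tdTomato+ libraries and 6.52 and 13.0 CPM in ZsGreen+ libraries. ZsGreen+ replicate 2 stood apart and the groups overlapped (log2 fold change -0.63, SE 0.42, edgeR adjusted p = 0.786). Lgr4 ran from 1.96 to 3.40 CPM, both ends in ZsGreen+ libraries. Rspo3, known as an endothelial R-spondin, had 7 and 11 counts in tdTomato+ and 13 and 27 in ZsGreen+ libraries (log2 fold change -1.25, SE 0.74, edgeR adjusted p = 0.762). Lgr6 had 10 and 5 counts in tdTomato+ and 0 in both ZsGreen+ libraries and was not tested. Rspo1, Rspo4, Lgr5 and Rnf43 had 0 to 15 counts, and none of the 3 genes tested was called.

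Among intracellular relay and feedback members, only the Dishevelled-binding inhibitor Nkd1 did not overlap between groups, as was so for 38.1% of all genes tested. Nkd1 stood at 143 and 153 CPM in tdTomato+ and 260 and 278 CPM in ZsGreen+ libraries, or 148 ± 7.25 against 269 ± 12.8 CPM (mean ± SD, n = 2 each). The libraries of each group lay close together and far from the other group. The log2 fold change of -0.86 (SE 0.17) was not called over all genes (edgeR adjusted p = 0.154). DESeq2, which called 2.5% of all genes, called Nkd1 (adjusted p = 0.000712). It was not called by limma-voom (adjusted p = 0.146) or by limma on TPM (adjusted p = 0.232 and 0.25). On leaving out 1 library its log2 fold change ran from -0.91 to -0.81. Axin2, the most widely used readout of canonical signalling, overlapped between groups, at 3.80 and 5.04 against 3.10 and 6.08 CPM (log2 fold change -0.06, SE 0.47). Axin1, the scaffold of the destruction complex, stood at 23.6 and 34.5 against 28.1 and 37.9 CPM, and Nkd2 at 5.78 and 12.6 against 5.82 and 10.1 CPM. Ctnnb1 was level at 528 ± 26.7 against 515 ± 27.6 CPM (mean ± SD, n = 2 each; log2 fold change 0.03, SE 0.18).

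The TCF/LEF factors, which bind DNA and recruit beta-catenin, lay on different sides without a call. Tcf7l1, often a repressor, stood at 37.7 and 48.1 CPM in tdTomato+ and 23.8 and 20.9 CPM in ZsGreen+ libraries (log2 fold change 0.94, SE 0.22, edgeR adjusted p = 0.213). Tcf7l2 had 38.2 and 28.3 against 26.6 and 21.9 CPM (0.45, SE 0.24), and Tcf7 had 19.0 and 29.1 against 29.2 and 43.6 CPM (-0.60, SE 0.30). None of the 3 overlapped between groups in CPM, as was so for 38.1% of all genes tested. For Tcf7, tdTomato+ replicate 2 and ZsGreen+ replicate 1 nearly met in CPM. In TPM its groups overlapped, with 14.1 in tdTomato+ replicate 2 and 12.8 in ZsGreen+ replicate 1. Lef1 was barely read, with 7 and 10 counts in tdTomato+ and 0 and 7 in ZsGreen+ libraries. On the TPM scale Tcf7l1, Tcf7 and Tcf7l2 lay within 9.07 to 27.9 in all libraries.

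The number of members called depended on how the data were processed. With edgeR and all libraries it was 1 of 37 with RLE factors (0.311% of all genes) or upper quartile factors (0.281%), 1 of 31 at 1 CPM or more in 2 libraries (0.351%), 3 of 58 with no minimum count (0.764%) and 8 of 37 with a replicate block (7.09%). DESeq2 called 6 members (2.5%), limma-voom 0 (0.25%) and limma on log2 TPM plus 1 or plus 0.1 also 0 (0.259% and 0.184%). Without ZsGreen+ replicate 1 it was 4 (2.21%), and 0 without tdTomato+ replicate 1 (0.126%), tdTomato+ replicate 2 (0.0295%) or ZsGreen+ replicate 2 (0.19%). Dkk2, Sfrp1 and Sfrp2 were called together in the 4 settings with 3 or more members called.

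**Figure D4:**
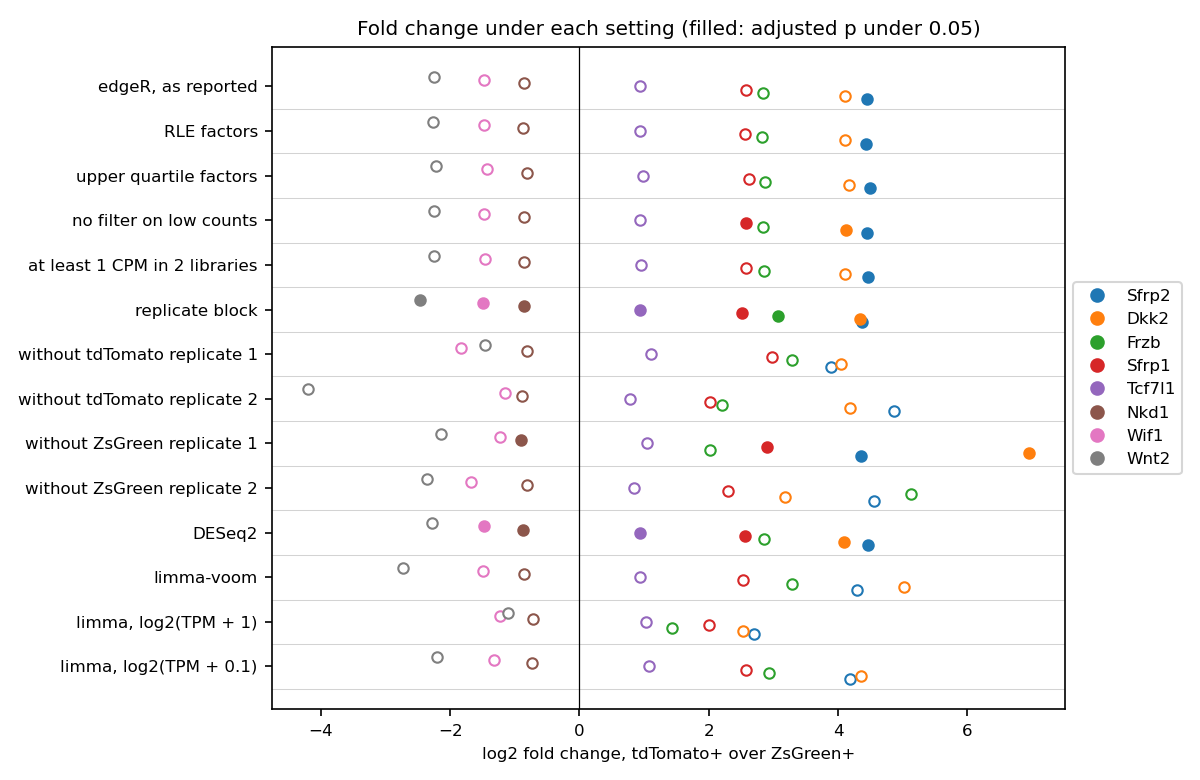
Log2 fold change (tdTomato+ over ZsGreen+) of the same 8 members under each way of processing, with filled points for an adjusted p under 0.05. The 8 members keep their sign in each setting run, while the number called ranges from 0 to 8. They were picked by p in these data and do not overlap between groups, which favours a kept sign.

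Other genes of the pathway, in 5 lists, gave 0 calls among 84 tested of 98 (edgeR adjusted p from 0.12 to 0.998). Of the 84, 11 had an unadjusted p under 0.05, beside 8.77% of all genes. Of these 11, Dact3 and Mfsd2a passed the minimum count through tdTomato+ libraries alone and had to differ in that direction. In all, 5 of the lists' genes were called by DESeq2, beside 2.5% of all genes tested with it. Among genes of secretion and surface binding, Wls, which carries Wnt proteins to the membrane, was level at 89.0 and 105 against 86.7 and 107 CPM. In that list Cthrc1, a secreted protein that binds Wnt and Frizzled, stood at 11.4 and 26.1 CPM in tdTomato+ and 3.61 and 5.53 CPM in ZsGreen+ cells (log2 fold change 2.03, SE 0.47, edgeR adjusted p = 0.201), and the glypican Gpc3 had a log2 fold change of 1.54 (SE 0.49). Its median was 0.50 over 13 genes. The 29 relay and destruction complex genes tested had a median of -0.02; of these the corepressor Tle5 was the most abundant and Dact3, at or under 1.84 CPM, had a log2 fold change of 2.20 (SE 0.71). The corepressor Tle2 had 0.51 (SE 0.22).

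Over the 18 planar cell polarity genes the median was -0.16. Celsr2, an atypical cadherin of that pathway, had 11.3 and 12.9 CPM in tdTomato+ and 29.4 and 27.1 CPM in ZsGreen+ cells (log2 fold change -1.22, SE 0.22, edgeR adjusted p = 0.12). Prickle2 had -0.47 (SE 0.21), and the GTPase Rhoa, the most abundant, had -0.24 (SE 0.19). Targets of beta-catenin outside the 61 genes had a median of 0.28 over 15. They included Ccnd1, cyclin D1, at 427 and 374 against 718 and 781 CPM (-0.90, SE 0.19, edgeR adjusted p = 0.172), and the hyaluronan receptor Cd44 at 97.4 and 112 against 55.4 and 44.0 CPM (1.07, SE 0.20, edgeR adjusted p = 0.122). Neither pair of groups overlapped, and the 2 genes lay on opposite sides. Plaur, the most abundant target, was level (-0.05, SE 0.19). Genes under Wnt control in brain endothelium had a median of -0.02 over 9, with Cldn5 at -0.84 (SE 0.22, edgeR adjusted p = 0.272), Sox17 at -0.47 (SE 0.24) and Plvap at -0.02 (SE 0.26). That list was not sorted by the direction in which Wnt acts on each gene, so its median gives no direction for the pathway.

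Summed levels of several marker lists for other cell types lay higher in both tdTomato+ libraries, beside the antagonists, though many single markers overlapped. All 14 fibroblast markers were read in every library. They summed to 243 and 337 TPM in tdTomato+ and 154 and 131 TPM in ZsGreen+ libraries. Of the 14, 0 were called, 6 lay above, 0 below and 8 overlapped. The 42.9% that did not overlap, all above, stands beside 19.9% of all genes tested that lay above and 38.1% in either direction. Pi16, known from adventitial fibroblasts, had the largest difference of the 14, at 52.4 and 64.4 TPM against 12.2 and 5.59 TPM. Npnt and Scara5 had log2 fold changes of -0.35 and -0.04, and Pdgfra stayed under 1 TPM in all libraries. Of 13 alveolar epithelial markers 9 lay above, 1 below and 3 overlapped (76.9% not overlapping), with sums of 844 and 938 against 453 and 280 TPM. Leukocyte markers summed to 7874 and 3886 against 3656 and 955 TPM, most of it Lyz2, whose groups overlapped in CPM. The other 13 summed to 477 and 404 against 268 and 120 TPM. Of the 14 leukocyte markers 4 lay above, 0 below and 10 overlapped (30.8% of those tested not overlapping). Mesothelial markers summed to 32.9 and 47.9 against 18.5 and 17.0 TPM, most of it Krt19 and Krt18, the 2 that lay above. The other 5 (Msln, Upk3b, Wt1, Lrrn4 and Upk1b) overlapped between groups, and Wt1 was near 0. The smooth muscle and pericyte list was carried by Tagln, at 1554 and 1972 against 1215 and 990 TPM, and its other 11 genes summed to 20.1 and 32.6 against 17.4 and 29.1 TPM and overlapped. Of those 12 genes 4 lay above, 2 (Kcnj8 and Higd1b) below and 6 overlapped. Airway markers ran from 138 to 2151 TPM with both ends in ZsGreen+ libraries, and Krt5 and Trp63 were read in none. The part of these cells in the values of Sfrp1, Sfrp2, Frzb and Dkk2 was not tested.

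Lymphatic endothelial markers lay the other way, beside Wif1, Nkd1 and Wnt2. Of the 8, 4 were called lower in tdTomato+ cells (Reln, Mmrn1, Thy1 and Fxyd6, edgeR adjusted p from 0.0305 to 0.0465), beside 0.137% of all genes. Their summed level, 422 and 603 against 439 and 685 TPM, was mostly Lyve1 (log2 fold change 0.42), and without it 83.7 and 66.1 against 218 and 305 TPM. The part of lymphatic cells in the values of Wif1, Nkd1 and Wnt2 was not tested.

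**Figure D5:**
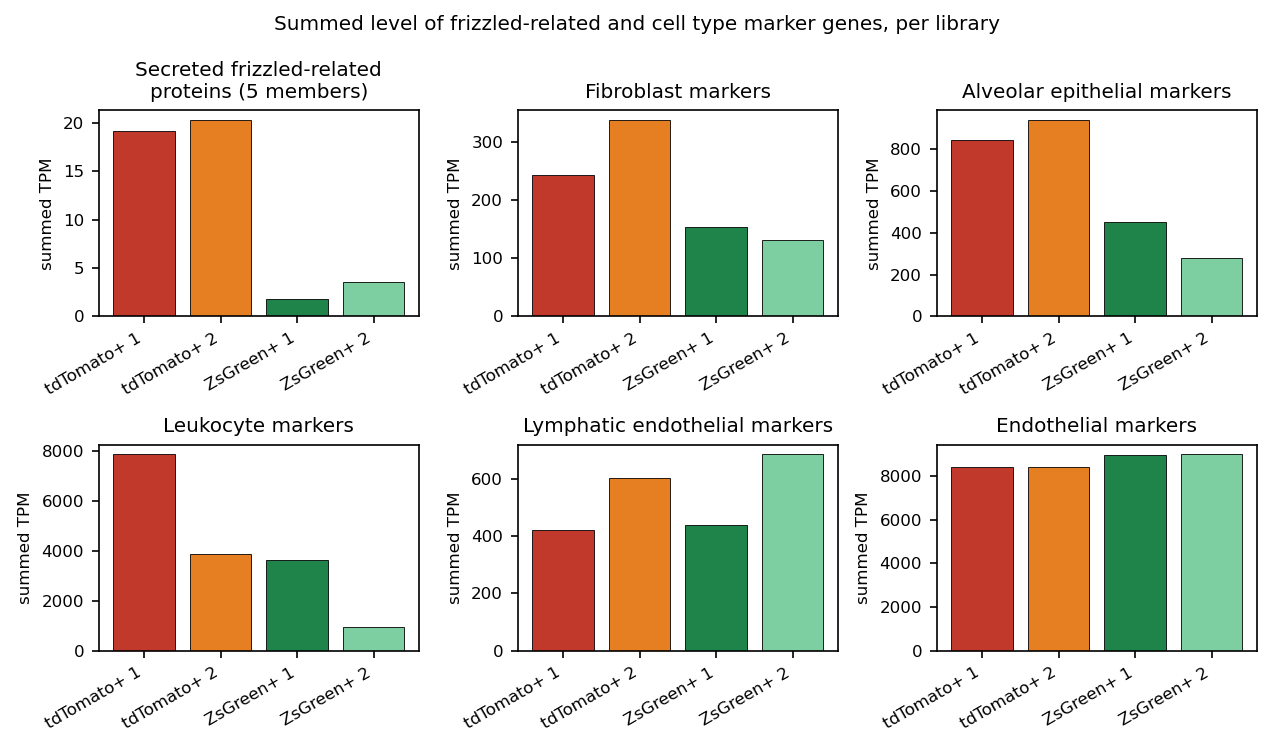
Summed TPM per library of the 5 secreted frizzled-related proteins and of marker lists for other cell types (bars: single libraries). The frizzled-related sum is 1.76 to 3.58 TPM in ZsGreen+ and 19.2 to 20.3 TPM in tdTomato+ libraries, where it is mostly Sfrp1 and Sfrp2. Fibroblast markers run from 131 to 337 TPM.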

How the data were processed

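RNA of sorted lung endothelial cells was amplified over the whole transcriptome from small amounts and made into libraries for an MGI sequencer, per the labels' protocols; no molecular identifier is mentioned there, and reads may be copies of 1 molecule. RSEM 1.3.1 and DESeq2 1.4.5, and the builds mm10 and GRCm38, are named in the submitters' processing notes. The aligner and the library's strandedness: not given in the sources used here. A gene and an overlapping neighbour may therefore share reads. Estimated counts per gene and TPM were used as the authors deposited them (16.2% to 18.0% of count values are not whole). Spans printed are those of RefSeq on GRCm38.p6, and 47 of the 61 members have the same span in the deposited table.

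Counts were rounded and tested with edgeR 4.0.16 (R 4.3.3): TMM factors, filterByExpr with a minimum count of 10, two-sided quasi-likelihood F-test, adjusted p under 0.05, SE computed from the fold change and F (absolute log2 value divided by root F). The spread between the replicates was 26.1% (edgeR's common coefficient of variation). An exact two-sided permutation test of 2 libraries against 2 cannot go below p = 0.333, and none is given. The test was also run on simulated counts drawn independently for each library, and its outcome is not used here. Changes were simulated only in genes with a mean CPM above that of Sfrp2 (4.75), so that run does not cover its call. Alternatives used DESeq2 1.42.0, limma 3.58.1, other factors and filters, each library left out, a replicate block, and log2 of TPM plus 1 or 0.1 over genes at 1 TPM or more in 2 libraries.

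Members, lists and tests were chosen with earlier results of these data known. Named are called members, up to 4 per role with the smallest p at a mean of 1 CPM or more, the most abundant per role by TPM, and for each other pathway list its called genes, the 2 with the smallest p at that mean and the most abundant. Other members and the marker genes were named after their values were seen. The promoter sequences shown were chosen after the values were seen, among members with 1 RefSeq window.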

Additional observations from a re-analysis of the deposited data

How the results depend on the processing

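The count of 1 called member depended on processing. It stayed at 1 with RLE or upper quartile factors and with a minimum of 1 CPM in 2 libraries. It was 3 with no minimum count (Sfrp2, Sfrp1 and Dkk2), 6 with DESeq2 (these and Nkd1, Tcf7l1 and Wif1) and 0 with limma-voom or limma on log2 TPM. Leaving out 1 library gave 0 to 4 members: 4 without ZsGreen+ replicate 1 and 0 without any 1 of the others. Calls over all genes, 40 as reported, numbered 128 with no minimum count and 330 with DESeq2, each with all 40 among them, and 22 with limma on log2(TPM + 0.1); they ran from 4 to 304 on leaving out 1 library. Calls in the other pathway lists, 0 as reported, were 1 with no minimum count, 5 with DESeq2 and 0 to 2 on leaving out 1 library. The longer letters CTTTGAT or CTTTGTT were in 11.8% of member windows and 9.33% of all windows.

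With the replicate number as a block, 934 genes, 8 members (Sfrp2, Sfrp1, Frzb, Dkk2, Nkd1, Tcf7l1, Wif1 and Wnt2) and 6 genes of the other lists were called, beside 7.09% of all genes. Deviations from the group means correlated at 0.454 between same-numbered libraries across genes, and the labels do not say whether same-numbered libraries share mice, so pairing is not established.

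Among the members named, whose fold change is given, the sign changed in some setting for the following alone. Lrp6 was at 0.006 (upper quartile), 0.002 (replicate block), 0.12 and 0.15 (TPM plus 1 and plus 0.1), Lrp5 at 0.0585 and 0.0594, Fzd4 at 0.0501 and 0.0521 and Axin2 at 0.0946 and 0.18 on the TPM scales, which also moved the median of all genes to 0.12 and 0.13. Sfrp4 was at 0.093 (replicate block) and 1.11 (limma-voom). On leaving out 1 library the range was -0.0639 to 0.57 for Wnt9a, -0.33 to 0.13 for Fzd4, -0.17 to 1.58 for Ror2, -0.23 to 0.0505 for Lrp5, -0.35 to 0.36 for Lrp6, -0.16 to 0.62 for Lgr4, -0.46 to 0.0622 for Axin1, -0.45 to 0.65 for Nkd2, -0.48 to 1.88 for Fzd2, -1.29 to 6.13 for Sfrp4, -0.46 to 0.51 for Axin2 and -0.0202 to 0.11 for Ctnnb1. The cause was not tested. Members under about 10 counts cannot be compared at this depth.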
